A study of Mus musculus with 40 samples.

Results

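The gene segments of the invariant natural killer T (iNKT) cell receptor α chain, Trav11 (TRAV11 in the tables), its copy Trav11d (TRAV11D) and Traj18 (TRAJ18), were followed through the Tcra repertoire of thymocytes from mice lacking a CTCF binding site. They were taken by name and make up 3 of the 154 segments (111 V and 43 J) listed in the Tcra tables: every J partner of both Trav11 copies was read, and every V partner of Traj18. The site, EACBE, is the CTCF binding site at Eα, the enhancer at the end of the Tcra-Tcrd locus. Thymocytes of EACBE-/- mice (2 libraries) were compared with those of EACBE+/+ mice (wild type, 2 libraries), all on the C57BL/6 background and 4 to 8 weeks old. The libraries were 4 of 40 samples in the study. They were made from thymocyte RNA by 5′ RACE, which reads the V and J segments of a receptor transcript whatever V segment it begins with, so that 1 count is 1 reading of a V joined to a J. Nothing in the labels says whether the 2 libraries of a genotype came from separate mice, so the tests measure the spread between libraries, which may be technical.

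iNKT cells are T cells that recognise lipids presented by the MHC-like molecule CD1d. In mice most of them carry 1 nearly fixed α chain, in which Trav11 (Vα14 in the older naming) is joined to Traj18 (Jα18) with little junctional variation, paired with a limited set of β chains. The joining happens by chance in CD4+CD8+ thymocytes. Rearrangement of Tcra is ordered: the first joins use Trav segments near the array and Traj segments at its V side, and later joins replace them with more distant Trav and with Traj segments nearer the constant region, so a join to Traj18 is usually one of the later ones. Cells whose chain is selected on CD1d then expand.

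The segments lie on chromosome 14 in the RefSeq annotation of GRCm38.p6, the assembly that mm10 is built on. Trav11, a variable segment with a leader and a V exon, occupies chr14:53519303-53519859. It is the 94th of the 130 annotated Trav genes counted from the distal end, in the proximal block of 43, 680917 bases from Traj18. Trav11d, its copy in a duplicated block of V genes, occupies chr14:52824357-52824913, the 20th of the 130, in the distal block of 44 and 1375863 bases from Traj18. Traj18, 66 bases long at chr14:54200777-54200842, is the 44th of 60 annotated Traj segments and one of the 14 listed segments in the 3′ part of the array, Traj21 to Traj1. Another annotated copy, Trav11n, was listed in 0 of the 4 tables. Trav11 and Trav11d are near-identical copies, so which of them a count was given to is uncertain.

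The depth of the libraries set the precision. The tables summed to 19085 and 163953 counts in EACBE-/- and to 10694 and 172388 counts in wild type (replicates 1 and 2), so each genotype had 1 shallow and 1 deep library. The replicates of a genotype differed by more than counting noise over the 43 J segments (chi-square 523 in EACBE-/- and 572 in wild type, 42 degrees of freedom). Intervals given for single libraries are 95% intervals (Wilson for shares, exact Poisson for ratios) and cover counting error only. The tables do not read the deleted site, so they hold no check of the genotype labels. The values come from RNA of all thymocytes, so more or fewer cells of a kind and more or less receptor RNA per cell cannot be told apart.

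Trav11, which supplies the V region of the invariant chain, had 134 and 1280 counts in EACBE-/- libraries, 0.702% (interval 0.593 to 0.831) and 0.781% (0.739 to 0.824) of each table, against 57 and 1018 counts in wild-type libraries, 0.533% (0.412 to 0.690) and 0.591% (0.555 to 0.628). Both EACBE-/- libraries lay above both wild-type libraries. The mean share was 0.741% ± 0.0556 in EACBE-/- and 0.562% ± 0.0407 in wild type (SD, n = 2 each). Among the V segments it was the 48th and the 42nd most used in EACBE-/-, and the 59th and the 60th in wild type. With edgeR's quasi-likelihood test over the 105 V segments listed in all 4 tables, the log2 difference (EACBE-/- over EACBE+/+) was 0.40 with a standard error of 0.344, and it did not pass (adjusted p = 0.587). Libraries in this order were common, since 25.7% of the tested V segments were higher in both EACBE-/- libraries without overlap, while 5.71% passed the test, all of them lower.

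The proximal neighbours of Trav11 gave values of the same kind. Trav10 had a log2 difference of 0.50 (edgeR, adjusted p = 0.447), Trav6-6 of 0.43 (0.506), Trav7-5 of 0.09 (0.896) and Trav12-1 of 0.88 (0.218). None of these passed, and Trav11 lay within their range.

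Trav11d was rarely listed. It had 19 and 20 counts in EACBE-/- libraries, 0.0996% and 0.0122% of each table, against 14 and 8 counts in wild-type libraries, 0.131% and 0.00464%. The shares followed the replicate number and not the genotype: both replicate 1 libraries were high and both replicate 2 libraries were low, and the genotypes overlapped. Mean shares were 0.0559% ± 0.0618 in EACBE-/- and 0.0678% ± 0.0893 in wild type (SD, n = 2 each), and the log2 difference was -0.19 with a standard error of 2.48 (edgeR, adjusted p = 0.970). Of all counts given to either copy, Trav11d took 12.4% and 1.54% in EACBE-/-, and 19.7% and 0.780% in wild type. The shallow libraries therefore divided the counts between the copies differently from the deep ones. Summed over both copies, the share was 0.802% and 0.793% in EACBE-/- libraries against 0.664% and 0.595% in wild-type libraries, again without overlap.

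Traj18, the joining segment of the invariant chain, had 261 and 2280 counts in EACBE-/- libraries, 1.37% (interval 1.21 to 1.54) and 1.39% (1.34 to 1.45) of each table, against 211 and 2807 counts in wild-type libraries, 1.97% (1.73 to 2.25) and 1.63% (1.57 to 1.69). Both EACBE-/- libraries lay below both wild-type libraries, and the mean share was 1.38% ± 0.0163 in EACBE-/- and 1.80% ± 0.244 in wild type (SD, n = 2 each). The log2 difference was -0.37 with a standard error of 0.147, which missed the threshold in edgeR over the 43 J segments (unadjusted p = 0.0543, adjusted p = 0.117). With DESeq2 the difference was -0.47 and passed (adjusted p = 0.0126), so the call differed between these fits. In edgeR 27.9% of the J segments passed the test, 9.3% as higher and 18.6% as lower. Counted separately, and whether or not they passed, 27.9% were lower in both EACBE-/- libraries without overlap.

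**Figure D1:**
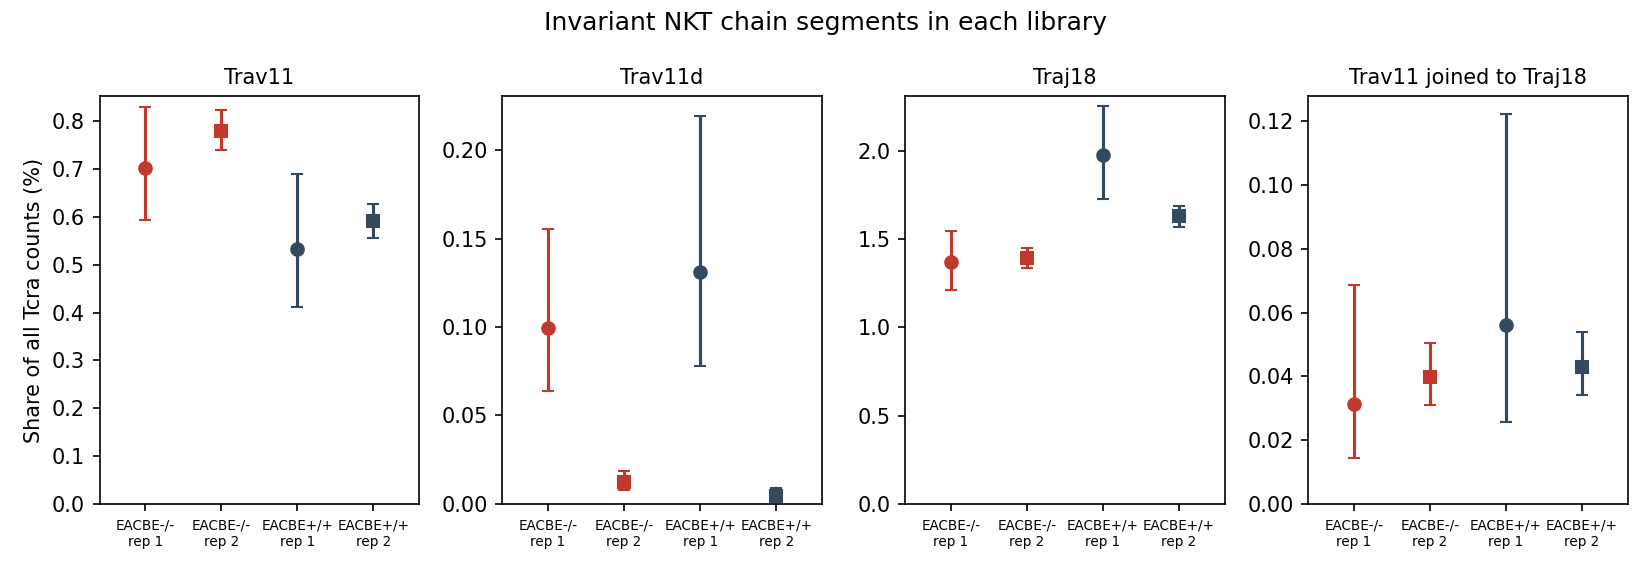
Share of all Tcra counts (%, each panel with its own axis from 0) of Trav11, Trav11d, Traj18 and the Trav11-Traj18 join in each library, EACBE-/- in red and EACBE+/+ in dark blue, replicate 1 as circles and replicate 2 as squares, with bars for the 95% Wilson interval. Trav11 is higher and Traj18 lower in both EACBE-/- libraries, Trav11d is high in both replicate 1 libraries, and the intervals of the join overlap in all 4 libraries.

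Traj18 was placed among the other Traj segments along the array. Of the 14 listed 3′ Traj segments, 8 fell and 0 rose in edgeR, where 18.6% of all J segments fell and 9.3% rose. By overlap alone, 12 of the 14 were lower in both EACBE-/- libraries, against 27.9% of all J segments. The median log2 difference of the 14 was -0.80, against 0.04 over all 43 J segments. This list and its direction were known beforehand and are given only to place Traj18, which was the 11th from the lowest of all J segments. Its neighbours on the V side had log2 differences of -0.24 for Traj22 (edgeR, adjusted p = 0.426) and -0.06 for Traj21 (0.782). Those on the constant-region side had -0.16 for Traj17 (0.426) and -0.34 for Traj16 (0.222). None of these 4 neighbours passed, and each was less negative than Traj18 at -0.37. Their standard errors ran from 0.104 (Traj21) to 0.221 (Traj22), and differences between neighbours were not tested. The segments that fell all lay closer to the constant region than Traj18.

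**Figure D2:**
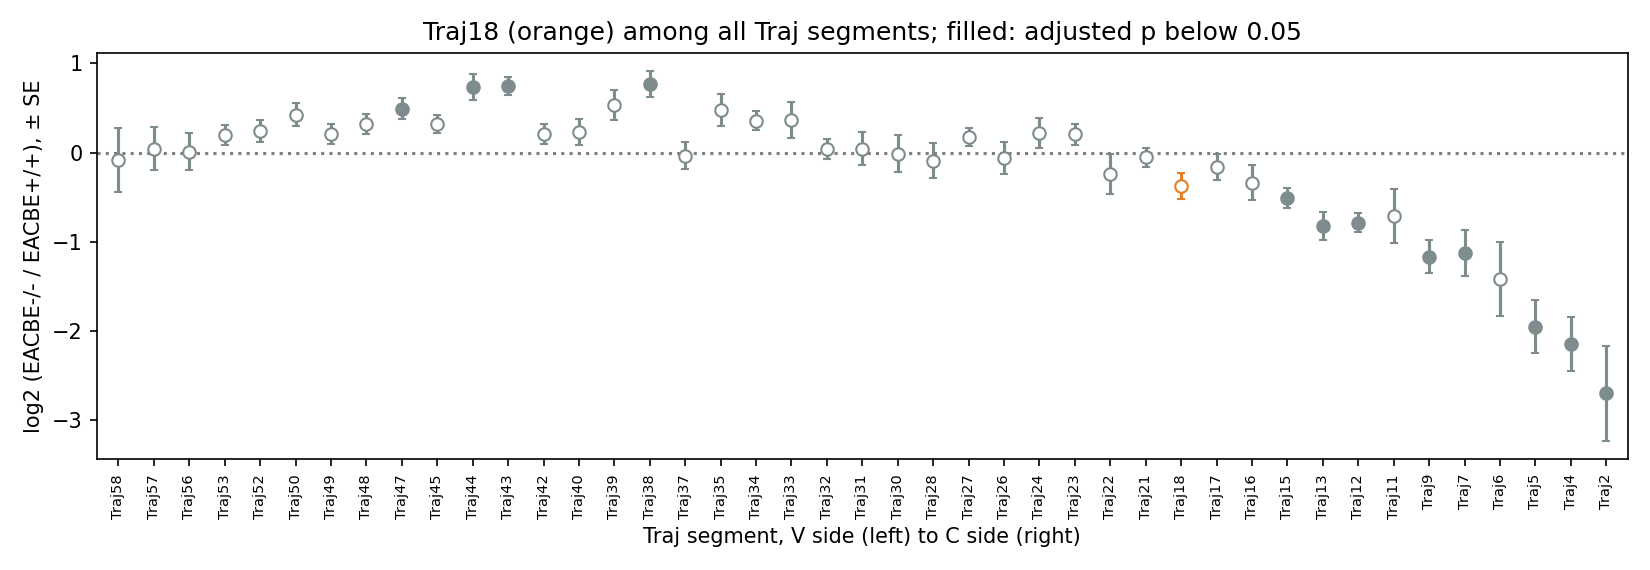
The log2 difference in use (EACBE-/- over EACBE+/+, edgeR) of each of the 43 Traj segments in order along the array, from the V side on the left to the constant-region side on the right, with bars for ± 1 standard error. Filled points have an adjusted p below 0.05. Traj18, the orange point at -0.37, is not filled and lies on the V side of the 8 segments that fell.

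The invariant join itself, Trav11 to Traj18, was counted 6 and 65 times in EACBE-/- libraries, 0.0314% (interval 0.0144 to 0.0686) and 0.0396% (0.0311 to 0.0505) of each table, against 6 and 74 times in wild-type libraries, 0.0561% (0.0257 to 0.122) and 0.0429% (0.0342 to 0.0539). The EACBE-/- libraries lay below the wild-type libraries, but the intervals overlapped within both replicate numbers. The mean was 0.0355% ± 0.00580 in EACBE-/- and 0.0495% ± 0.00932 in wild type (SD, n = 2 each). The log2 difference of -0.34 with a standard error of 0.591 did not pass in edgeR over 2416 V-J pairs (adjusted p = 0.852), of which 3.27% passed and 21.9% were lower without overlap. With 6 joins in each shallow library, only a large difference could have been detected. Counted over both copies, the joins to Traj18 were 17 and 71 in EACBE-/- libraries and 12 and 75 in wild-type libraries, and the log2 difference of that sum was -0.05.

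The join was more frequent in all 4 libraries than the use of its segments gives. The count expected if V and J were joined independently is the Trav11 total times the Traj18 total divided by the table total. It was 1.83 and 17.8 joins in EACBE-/- libraries, and 1.12 and 16.6 joins in wild-type libraries. Observed over expected was 3.27 (interval 1.20 to 7.13) and 3.65 (2.82 to 4.65) in EACBE-/-, against 5.33 (1.96 to 11.6) and 4.46 (3.51 to 5.60) in wild type. Every interval excluded 1, and the genotypes did not overlap. The means were 3.46 ± 0.267 in EACBE-/- and 4.90 ± 0.616 in wild type (SD, n = 2 each; two-sided exact permutation p = 0.333, the smallest that 2 against 2 libraries can give).

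The same comparison was made in edgeR with the expected count as an offset, so that only joining beyond segment use was tested. The log2 difference was -0.33 with a standard error of 0.271 and did not pass (adjusted p = 0.674). Over the 2416 pairs 1.32% passed, and 17.5% were lower without overlap. With both copies summed, observed over expected was 8.12 and 3.93 in EACBE-/- libraries, against 8.57 and 4.49 in wild-type libraries. The ratio of the sum thus divided the libraries by replicate number and the genotypes overlapped. It was still lower in EACBE-/- within each replicate number, and the log2 difference of the sum was -0.13 (edgeR, adjusted p = 0.878).

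Trav11d was joined to Traj18 in 11 of 19 and 6 of 20 counts in EACBE-/- libraries, 57.9% (interval 36.3 to 76.9) and 30.0% (14.5 to 51.9), against 6 of 14 and 1 of 8 counts in wild-type libraries, 42.9% (21.4 to 67.4) and 12.5% (2.24 to 47.1). Observed over expected was 42.3 and 21.6 in EACBE-/-, and 21.7 and 7.68 in wild type, the highest ratio with Traj18 of any listed V segment in all 4 libraries. These ratios rest on 0.260 and 0.278 expected joins in EACBE-/-, and 0.276 and 0.130 in wild type. Ranked in the same way, with no minimum of expected joins, Trav11 was the 7th and the 5th in EACBE-/-, and the 5th and the 2nd in wild type. The single join in the deep wild-type library left its ratio with an interval that included 1. Trav11d supplied 64.7% and 8.45% of the joins of either copy to Traj18 in EACBE-/- libraries, but 5.88% and 1.14% of their joins to other J segments. In wild-type libraries the corresponding shares were 50.0% and 1.33% with Traj18, and 13.6% and 0.736% with other J segments. The copy was thus listed relatively more often in joins to Traj18 than in other joins in all 4 libraries. In the deep wild-type library this rests on 1 join, and the intervals of its 2 shares overlapped (0.236 to 7.17 and 0.357 to 1.51). The genotypes overlapped in each of these measures (log2 difference of the Trav11d-Traj18 pair 1.11 with a standard error of 1.42, edgeR, adjusted p = 0.784).

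**Figure D3:**
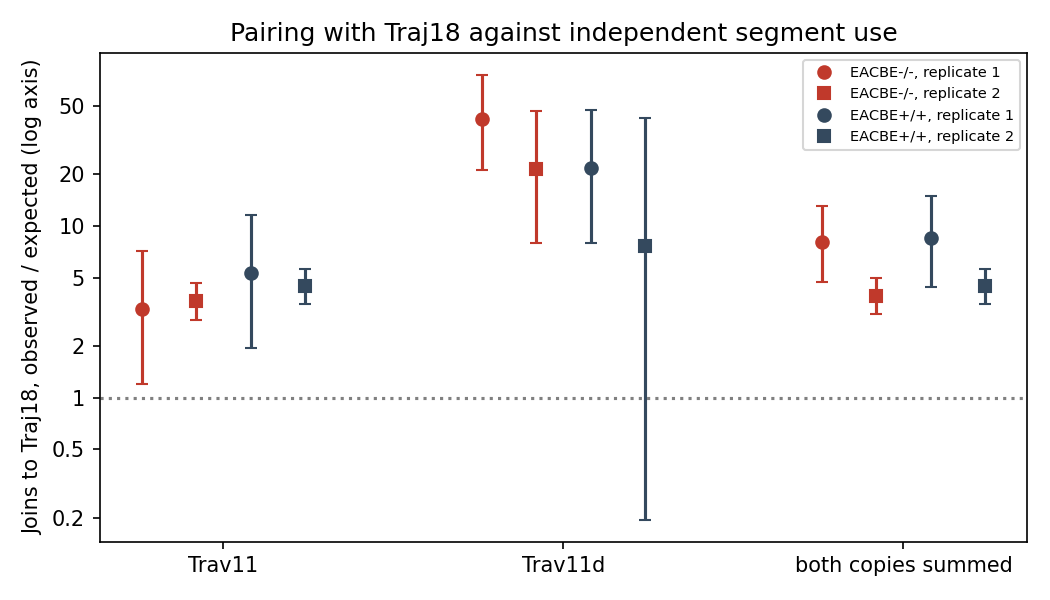
Joins to Traj18 observed over those expected from independent use of the segments (log axis; the dotted line at 1 is independence) for Trav11, Trav11d and both copies summed, EACBE-/- in red and EACBE+/+ in dark blue, replicate 1 as circles and replicate 2 as squares, with exact 95% Poisson intervals. The ratios of Trav11 are 3.27 and 3.65 in EACBE-/- and 5.33 and 4.46 in EACBE+/+, and those of the summed copies are highest in the 2 replicate 1 libraries.

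Seen from Trav11, Traj18 took 4.48% (interval 2.07 to 9.42) and 5.08% (4.00 to 6.42) of its joins in EACBE-/- libraries, against 10.5% (4.91 to 21.1) and 7.27% (5.83 to 9.03) in wild-type libraries. The means were 4.78% ± 0.425 in EACBE-/- and 8.90% ± 2.30 in wild type (SD, n = 2 each), a difference of -4.12 percentage points without overlap (two-sided exact permutation p = 0.333, the smallest possible). Within replicate 1 the difference was -6.05 points and within replicate 2 it was -2.19 points. With both copies summed the separation was lost: Traj18 took 11.1% and 5.46% of their joins in EACBE-/- libraries, against 16.9% and 7.31% in wild-type libraries, a difference of -3.82 points with overlap (two-sided exact permutation p = 0.667). Traj18 was the 9th and the 7th most frequent partner of Trav11 in EACBE-/-, and the 2nd in both wild-type libraries. By observed over expected it was the 3rd and the 2nd of the 43 J segments in EACBE-/-, and the 1st in both wild-type libraries. Seen from Traj18, Trav11 took 2.30% and 2.85% of its joins in EACBE-/- libraries, and 2.84% and 2.64% in wild-type libraries. Those shares overlapped, with a difference of -0.165 points (two-sided exact permutation p = 1). The 2 readings have different denominators, of which Trav11 had the higher mean share in EACBE-/- and Traj18 the lower.

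Traj18 joined widely. It was found with 69 of 105 and 102 of 111 listed V segments in EACBE-/- libraries, and with 69 of 106 and 104 of 111 in wild-type libraries. Among V segments with at least 1 expected join, Trav11 had the highest ratio with Traj18 in the shallow EACBE-/- library and in both wild-type libraries, and the 2nd highest in the deep EACBE-/- library. The most frequent partners over the 4 libraries by mean share included Trav7-4, with 12 and 104 joins in EACBE-/- and 5 and 118 in wild type. Trav3D-3 had 8 and 53 joins in EACBE-/- and 9 and 160 in wild type. Trav13-1 had 9 and 82 joins in EACBE-/- and 7 and 79 in wild type. These are ordinary V segments of conventional T cells, and by mean share Trav11 was the 8th partner of Traj18. The 6 leading partners together held 21.5% and 17.8% of Traj18 joins in EACBE-/-, and 19.0% and 22.6% in wild type.

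**Figure D4:**
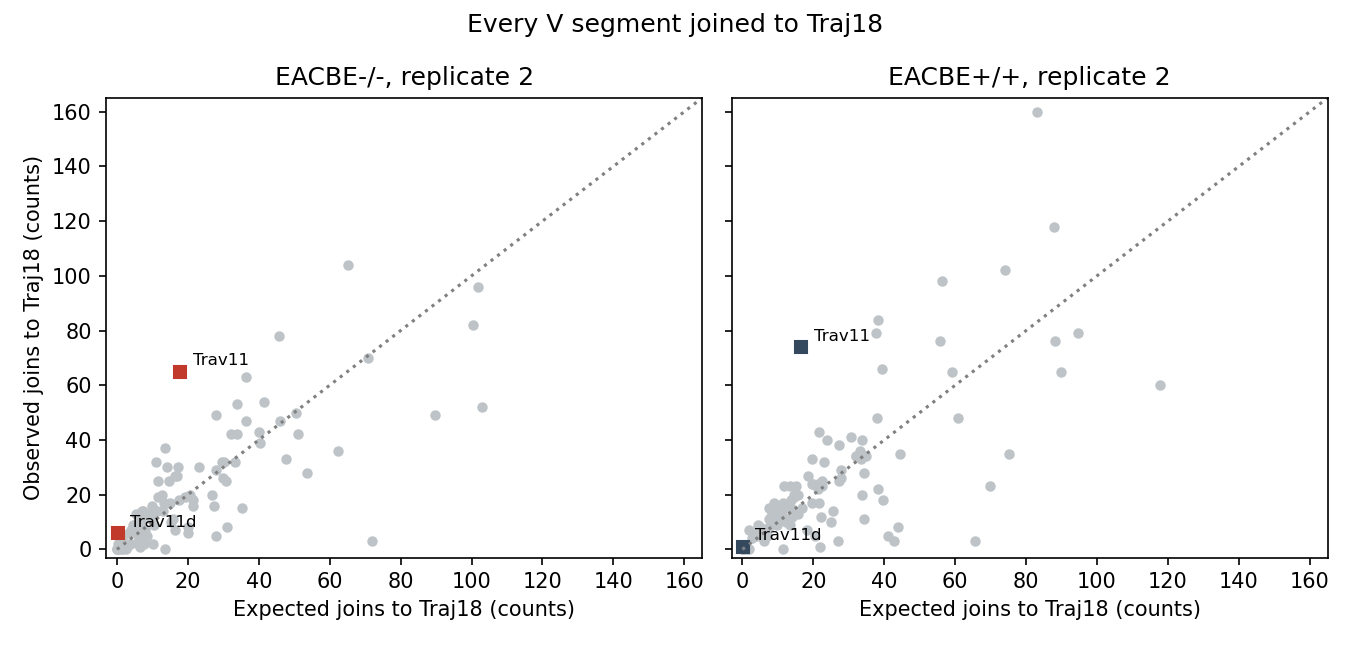
Observed against expected joins to Traj18 (counts, the dotted line is equality) for each V segment in the deep EACBE-/- library on the left and the deep EACBE+/+ library on the right. Trav11 lies above the line in both, at 65 joins against 17.8 expected and 74 against 16.6 expected, while Trav11d lies near the origin.

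Of the Traj18 joins, 51 of 105 V segments had enough counts to be tested. With 2.94% of all pairs passing as lower and 0.331% as higher, 1 of the 51 passed: Trav1 joined to Traj18, with 0 and 2 counts in EACBE-/- libraries against 4 and 84 counts in wild-type libraries. It fell by 5.24 on the log2 scale (standard error 0.997, edgeR, adjusted p = 0.00127). The pair met the count filter through the wild-type libraries alone, so the filter favoured a fall. Summed over the libraries of a genotype, 2 joins stood against 88, a ratio of 0.0227 with an exact 95% interval of 0.00271 to 0.0846 that covers counting error only and not the spread between libraries. Trav1, the Trav at the distal end of the array, serves mucosal-associated invariant T (MAIT) cells as their V segment, and its total use fell in EACBE-/- (log2 difference -6.26, edgeR, adjusted p = 0.000742). Relative to segment use the pair did not pass (log2 difference 1.17, standard error 1.27, edgeR, adjusted p = 0.767). Only 0.0274 and 0.375 joins were expected in EACBE-/- libraries, so that test cannot decide whether pairing changed. Of the 51, 4 were higher and 15 lower without overlap, against 25.4% and 21.9% of all pairs. The median log2 difference of the 51 was -0.12, against 0.09 over all pairs. Relative to segment use 0 of the 51 passed in DESeq2 and 0 in edgeR, where 1.32% of all pairs passed. In edgeR 4 of the 51 had an unadjusted p under 0.05, and the median was 0.14. On that scale 13 of the 51 were higher and 8 lower without overlap, against 19.9% and 17.5% of all pairs. The excess of lower pairs in the shares was not seen there, and all pairs also leaned to higher.

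The positions of the other V partners of Traj18 were compared by blocks of the Trav array (44 distal, 43 central and 43 proximal genes). Proximal V segments took 32.0% and 41.3% of Traj18 joins without the Trav11 copies in EACBE-/- libraries, against 23.6% and 30.4% in wild-type libraries. Central V segments took 21.3% and 23.3% in EACBE-/-, against 31.7% and 29.6% in wild type. Neither block overlapped between genotypes (two-sided exact permutation p = 0.333 for each, the smallest possible). Distal V segments took 40.9% ± 8.20 in EACBE-/- and 42.3% ± 3.39 in wild type (SD, n = 2 each), with overlap. Over all other J segments the central block also lay lower without overlap, with 18.4% ± 1.62 in EACBE-/- and 21.1% ± 0.734 in wild type, and the proximal block higher without overlap, with 51.4% ± 4.94 proximal in EACBE-/- and 47.1% ± 0.472 in wild type. Traj18 joins held fewer proximal V than other J segments in each of the 4 libraries.

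The J partners of Trav11 were uneven, and similarly so in both genotypes. Trav11 was joined to 24 and 41 of the 43 J segments in EACBE-/- libraries, and to 22 and 42 in wild-type libraries. Its most frequent partner by mean share was Traj32, with 13 and 98 joins in EACBE-/- and 8 and 60 in wild type. Traj27 followed with 9 and 116 joins in EACBE-/- and 6 and 85 in wild type. Traj39 was next with 13 and 113 joins in EACBE-/- and 3 and 55 in wild type. These are ordinary J segments of the middle of the array. The counts of Trav11 joins in the 2 deep libraries correlated across the 42 J segments other than Traj18 with a Spearman coefficient of 0.900. This is a description over segments that share their libraries. The counts also carry how often each J segment was used with any V, so the coefficient does not measure pairing alone.

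In both deep libraries 17 J segments were joined to Trav11 at under 0.5 of the expected count, and 14 at over 1.5 times it. The low ones were Traj58, Traj52, Traj49, Traj45, Traj44, Traj43, Traj37, Traj31, Traj30, Traj24, Traj23, Traj22, Traj16, Traj13, Traj12, Traj7 and Traj5, spread over the 5′ (6), middle (6) and 3′ (5) parts of the array and interleaved with the high ones. Traj45, for example, had 2 joins where 40.9 were expected in the deep EACBE-/- library, and 1 where 26.5 were expected in the deep wild-type library. Traj30 had 1 join where 28.8 were expected in EACBE-/-, and 1 where 23.7 were expected in wild type. At the other end, Traj6 had 44 joins where 11.6 were expected in EACBE-/-, and 53 where 24.9 were expected in wild type.

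The shallow libraries, which did not choose the 17 segments, showed the same shortage. The 17 held 5.22% of Trav11 counts in the EACBE-/- library of replicate 1 (7 of 134) and 5.26% in the wild-type library of replicate 1 (3 of 57), against 44.2% and 44.1% of the counts of all other V segments. In the deep libraries they held 6.17% in EACBE-/- and 9.23% in wild type. Of the V segments with at least 50 counts (76 in EACBE-/- and 62 in wild type among the shallow libraries), Trav11 had the lowest share in each library, and the next was Trav13-3 with 27.7% in EACBE-/- and 30.9% in wild type. The set was drawn from Trav11 itself, and other V segments had low sets of their own. By the number of J segments under 0.5 in both deep libraries Trav11 was the 7th of 97 V segments, behind Trav21/dv12 and Trdv1 with 27 each, Trdv2-2 with 26, Trav19 with 21, Trav14-3 with 19 and Trav17 with 18, against a median of 3. Trav11d had 0 counts with these 17 segments in every library, of 19 and 20 counts in EACBE-/- and 14 and 8 in wild type. The neighbouring Trav10 had 50.2% and 41.5% of its counts there in EACBE-/-, and 42.5% and 42.4% in wild type, close to the rest of the locus.

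**Figure D5:**
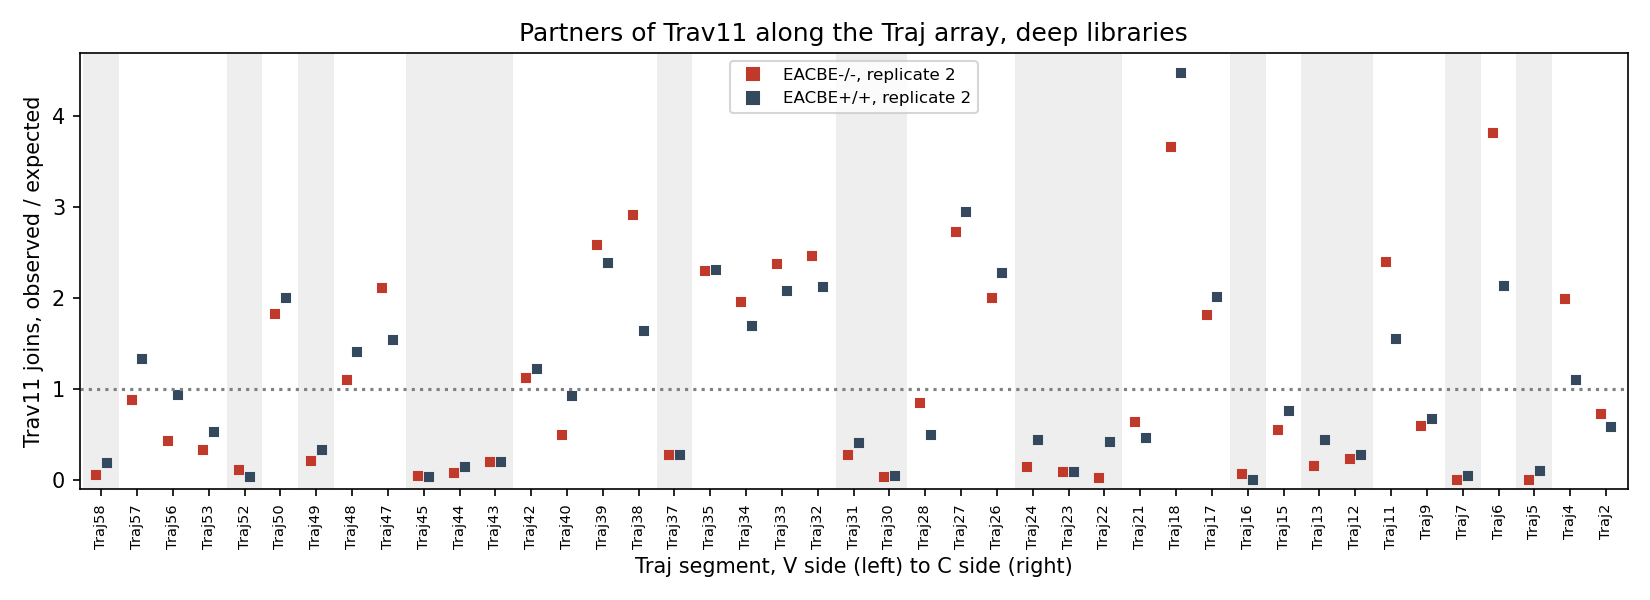
Joins of Trav11 observed over those expected (the dotted line at 1 is independence) with each Traj segment in order along the array, V side on the left, in the deep EACBE-/- library (red) and the deep EACBE+/+ library (dark blue). Shading marks the 17 segments below 0.5 in both libraries, which lie singly or in short runs among the others, and Traj18 is the highest point in EACBE+/+ at 4.46.

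Measured by the standard deviation of its log2 ratios over the J segments in the deep libraries, the profile of Trav11 was the 4th most uneven of 97 V segments, at 2.00 in EACBE-/- and 1.80 in wild type against a median of 0.887. The V segments whose J profiles were most like it, by the Spearman correlation of mean J shares over the 4 libraries and the 42 J segments other than Traj18, were Trav4-3 at 0.348, Trav13-2 at 0.325 and Trav3-3 at 0.325, against a median of 0.204 over 37 V segments. For the V profile of Traj18, the most like were Traj22 at 0.908, Traj15 at 0.908 and Traj17 at 0.906, over 103 V segments, with a median of 0.715 over 35 J segments. The segments compared had at least 100 counts in each library, which Trav11 itself did not reach, with 57 in the shallow wild-type library. Traj18 had at least 211. Each library weighed equally, so counting noise lowers the Trav11 coefficients more, and the 2 sets cannot be compared in size. These coefficients describe segments read in the same libraries.

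Of the 43 pairs of Trav11, 20 had enough counts to be tested between genotypes, and of the 43 pairs of Trav11d, 1 had. In edgeR 0 of the 20 passed, against 3.27% of all pairs, and 1 had an unadjusted p under 0.05. With DESeq2 0 of the 17 that it gave an adjusted p passed. Without overlap, 8 of the 20 were higher and 1 was lower, the invariant join, against 25.4% and 21.9% of all pairs. The median log2 difference was 0.51, against 0.09 over all pairs. Relative to segment use 0 of the 20 passed in edgeR, against 1.32% of all pairs, and 0 in DESeq2. In edgeR 2 had an unadjusted p under 0.05, and the median was 0.05, as over all pairs to 2 decimals. On that scale 4 of the 20 were higher and 3 lower without overlap, close to the 19.9% and 17.5% of all pairs. The balance of 8 to 1 in the shares was not seen there. The lowest of these unadjusted p-values was that of Traj6, whose ratio to Trav11 was 4.50 and 3.81 in EACBE-/- libraries against 2.66 and 2.13 in wild-type libraries (log2 difference 0.84, unadjusted p = 0.0114, edgeR adjusted p = 0.213).

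By position, joins of Trav11 other than to Traj18 went to the 3′ part of the Traj array in 11.7% and 15.8% of counts in EACBE-/- libraries, against 11.8% and 25.3% in wild-type libraries. The shallow libraries were nearly equal and the deep ones were not, and the genotypes overlapped (difference of the means -4.78 points, two-sided exact permutation p = 0.667). With both copies summed the shares were 11.8% and 15.7% in EACBE-/- libraries, against 16.9% and 25.4% in wild-type libraries, a difference of -7.46 points without overlap (two-sided exact permutation p = 0.333, the smallest possible). All other V segments together took 14.5% ± 1.59 of their joins there in EACBE-/- and 25.5% ± 4.24 in wild type (SD, n = 2 each), without overlap. The wild-type shallow library had 6 such Trav11 joins, so its share of 11.8% has an interval of 5.51 to 23.4. The 5′ part took 26.5% ± 3.39 of Trav11 joins in EACBE-/- and 26.0% ± 2.11 in wild type, with overlap.

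The other well-known invariant α chain of the mouse, Trav1 joined to Traj33 in MAIT cells, was set beside the iNKT join. It was counted 0 and 0 times in EACBE-/- libraries, which allows a share of up to 0.0157% and 0.00183%, against 4 and 44 times in wild-type libraries, 0.0374% and 0.0255%. The pair fell in edgeR (adjusted p = 0.00253), and with DESeq2 it did not pass (adjusted p = 0.0681). It met the count filter through the wild-type libraries alone, so the filter favoured a fall. Only 0.0673 and 0.667 joins were expected from segment use in EACBE-/- libraries. The 0 counts there cannot tell a change in pairing from the lower use of Trav1. In wild type the MAIT join was close to what its segments' use gives, with a ratio of observed to expected of 1.65 and 0.922, while the iNKT join exceeded it in both. The use of Traj33 did not pass (log2 difference 0.37, adjusted p = 0.222, edgeR), and that of Trav1 fell, as given above. The difference between the iNKT and MAIT pairs was not tested.

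In the Trd repertoire tables of both genotypes Trav11 was listed in the replicate 2 tables alone, with 2 of 47158 counts in EACBE-/- and 0 of 28093 in wild type, and Trav11d in none. The boundary lists of 1 Hi-C library per genotype, made from Rag1-/- thymocytes of anti-CD3-treated mice and so without Tcra rearrangement, place the segments among chromatin boundaries in bins of 20000 bases. The nearest boundary to Traj18 began 59159 bases downstream in EACBE-/- Rag1-/- and 39159 bases downstream in EACBE+/+ Rag1-/-, a shift of 1 bin. The nearest to Trav11 began 180142 bases downstream in EACBE-/- Rag1-/- and 160142 bases downstream in EACBE+/+ Rag1-/-, again 1 bin. Between Trav11 and Traj18 lay 2 boundaries in EACBE-/- Rag1-/- and 4 in EACBE+/+ Rag1-/-, while the whole lists held 533 in EACBE-/- Rag1-/- and 400 in EACBE+/+ Rag1-/-. With 1 library per genotype these differences have no replicate check.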

How the data were processed

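Per the labels' protocols, thymocyte RNA was copied with an oligo(dT) primer and template switching, and Tcra transcripts were amplified by PCR. The authors deposited 1 table of whole-number counts per library, V segments by J segments. The segment assigner, and what 1 count stands for (a read or a receptor), are among the steps not given in the sources used here. If counts are reads, abundant transcripts and amplification weigh on every share. The deposited boundary lists give a score per bin on mm10, per the file headers. Tools named in the submitters' processing notes, with no roles, were Juicer 1.13.02, HiC-Pro 2.11.1, bedtools 2.26.0, Bowtie2 (2.3.4.3 and 2.20.8) and cutadapt 0.4.4, and the build was mm10.

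Counts per V, J and V-J pair were tested with the quasi-likelihood functions glmQLFit and glmQLFTest of edgeR 4.0.16 in R 4.3.3. Library sizes were the table totals, TMM was not applied, and filterByExpr used a minimum count of 10 and a minimum total of 15. V segments listed in all 4 tables entered. P-values were adjusted by Benjamini-Hochberg over each whole table, with a threshold of 0.05. Shares, intervals and permutation tests were computed in Python 3.11.15 with scipy 1.17.1. The 149 Tra segments were matched by symbol to RefSeq, GRCm38.p6. Partners named are the 6 with the highest mean share per member, of which the leading ones and Traj18 are described, and the 3 most like segments by profile. The low and high J sets and Traj45, Traj30 and Traj6 were chosen after their values were seen. Members and lists were chosen with earlier results of these data known. The alternatives tried were DESeq2 1.42.0, TMM factors, no filter, a replicate block, copies summed, single replicate numbers, and each library left out. Fits were tested on simulated data. Other libraries of the study were not analysed here.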

Additional observations from a re-analysis of the deposited data

How the results depend on the processing

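The log2 difference in Trav11 use ran from 0.32 to 0.48 over 9 alternatives (adjusted p 0.135 to 0.885), that of the Trav11-Traj18 join from -0.62 to -0.05 (0.698 to 1.00), and that of the join relative to segment use from -0.56 to -0.13, and none of these passed. Traj18 use stayed lower in all 8 of its alternatives and passed with DESeq2 (-0.47) and with the replicate number as a block (-0.29, edgeR, adjusted p = 0.00102), while leaving out a library gave -0.52 to -0.24 without passing. Same-numbered libraries were alike in depth and deviated together (correlation 0.875 over V segments and 0.782 over J segments). The labels give them only a number in common. With 2 numbers and no label of a shared mouse or day they were not taken as pairs, so this spread stayed in the main fits. Trav11d use was 0.43 with that block and -2.28 to 3.47 with a library left out, and the Trav11d-Traj18 join ran from -1.20 to 4.97, the last passing without EACBE+/+ replicate 1 (edgeR, adjusted p = 0.0442). With copies summed, the Traj18 share of Trav11 joins differed between genotypes by -3.82 points with overlap in place of -4.12 without, the 3′ share of other joins by -7.46 without overlap in place of -4.78 with it, and the 5′ share by 2.00 in place of 0.550. The Trav11 share of Traj18 joins, -0.165 points, became 0.634 with copies summed, 0.215 within replicate 2 and -0.441 to 0.111 with a library left out. Leaving out a library moved the difference in the 3′ Traj share of other Trav11 joins to between -11.6 and 2.00 points, in the 5′ share to between -1.85 and 2.95 (-0.355 within replicate 2), and in the distal Trav share of other Traj18 joins to between -7.20 and 4.39 (2.00 within replicate 1); the cause was not tested. The Trav1-Traj33 join did not pass with DESeq2, both Trav1 joins passed in every other alternative that kept them, and they could not be tested without either replicate 2 library. V segments passing numbered 6, but 49 with the block, 12 with copies summed and 2 to 4 with a library left out. J segments passing numbered 12, but 32 with the block and 6 to 13 with a library left out. Pairs passing numbered 79, but 18 with DESeq2, 129 with no filter, 715 with the block, 268 with copies summed and 0 to 150 with a library left out. Relative to segment use 32 passed, but 0 with DESeq2, 21 with no filter, 89 with the block and 1 to 24 with a library left out. The shallow libraries, with 6 invariant joins each, limit every statement on that join.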
